A study of Arabidopsis thaliana with 21 samples.

Results

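The regions described here are the stretches of the Arabidopsis thaliana genome that were enriched in chromatin immunoprecipitation followed by sequencing (ChIP-seq) of the zinc finger protein AZF1, lay on chromosome arms, and met no enriched region of FIE, BPC1 or trimethylated lysine 27 of histone H3 (H3K27me3). They were chosen by position: a region of the AZF1 list on chromosomes 1 to 5 was kept when it shared no base with a region of the other 3 lists and its summit lay outside the gene-poor centres, taken as 13 to 17 Mb of chromosome 1, 2 to 6 Mb of chromosomes 2 and 4, 11 to 16 Mb of chromosome 3 and 10 to 14 Mb of chromosome 5. In all, 1114 regions qualified, or 24.96% of the 4464 nuclear AZF1 regions (95% Wilson interval 23.7 to 26.2%) and 47.6% of the 2340 AZF1 regions on the arms (45.6 to 49.6%). The other arm AZF1 regions fell into 247 alone inside H3K27me3, 384 that met BPC1 and not FIE, and 595 that met FIE. A further 930 AZF1 regions met none of the other lists but lay in the centres. The 4 lists together held 16032 nuclear regions.

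The study profiled 7 groups of 3 biological replicates, 21 samples in all, from untreated plants 30 h old grown on plates under 16 h light and 8 h dark. The AZF1 groups came from the Col ecotype carrying the transgene gAZF1-Myc, precipitated with anti-Myc, and the Col input came from the same line. BPC1 was precipitated with anti-Myc from Col carrying gBPC1-Myc, FIE with anti-HA from C24 plants with pFIE:FIE-HA in the fie-11 mutant, beside C24 input of that line, and H3K27me3 and total H3 from Col with no transgene. The labels give gAZF1-Myc in Col rather than in an azf1 mutant, and they do not say how many independent lines were used. FIE was thus profiled in another ecotype than AZF1, and whole plants were used, so a region can come from any of their cells.

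AZF1 is a C2H2 zinc finger protein with an EAR repression motif. It is known as a transcriptional repressor induced by abscisic acid and osmotic stress, and as a factor that binds sites at which Polycomb repressive complex 2 (PRC2) is recruited. FIE is a WD40 subunit of PRC2, the complex that places H3K27me3 on repressed genes, and BPC1 belongs to a plant family that binds GA repeats. The regions described here are those that met neither PRC2 nor its mark in the deposited lists.

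Each region carries 1 fold enrichment and 1 −log10 q, the authors' values for that region over its control. The lists hold no value for a single replicate and no read count, so no spread between replicates can be given and the depth behind a region is unknown. The AZF1 list holds regions from −log10 q = 10 upward, and its peak numbers run to 19989 for 4627 rows with the organelle regions, so 23.1% of the numbers are present. The interval beside a share reflects only how many regions were counted, and neighbouring regions are not independent. No test was made of any difference below. The absence of a region from a list means that it did not reach that list's threshold, not that the protein or mark was missing.

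These AZF1 regions lay mostly inside protein-coding genes. Of the 1114 summits, 876 were inside a protein-coding gene, or 78.6% (76.1 to 80.9%), while such genes cover 62.9% of the bases of the arms. Another 96 summits, or 8.62% (7.11 to 10.4%), were inside a pseudogene, a class that in this gene table includes transposable element genes and that alone covers 3.16% of the arm bases. A further 17 summits were in other kinds of gene, 88 lay outside genes but within 1 kb of one, and 37 lay over 1 kb from any gene. The share inside any gene was 88.8% (86.8 to 90.5%), against 67.4% of the arm bases.

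Among the arm classes, the share of summits inside a gene was 88.8% in the regions that met no other list, against 83.8% (78.7 to 87.9%) in those alone in H3K27me3, 86.2% (82.4 to 89.3%) in those with BPC1 and without FIE, and 74.8% (71.1 to 78.1%) in those with FIE. The interval of the first overlaps those of the H3K27me3 and BPC1 classes and does not meet that of the class with FIE. In the chromosome centres, AZF1 regions that met no other list were inside a gene in 437 of 930 cases (43.8 to 50.2%), and 387 of those summits lay in a pseudogene.

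**Figure D1:**
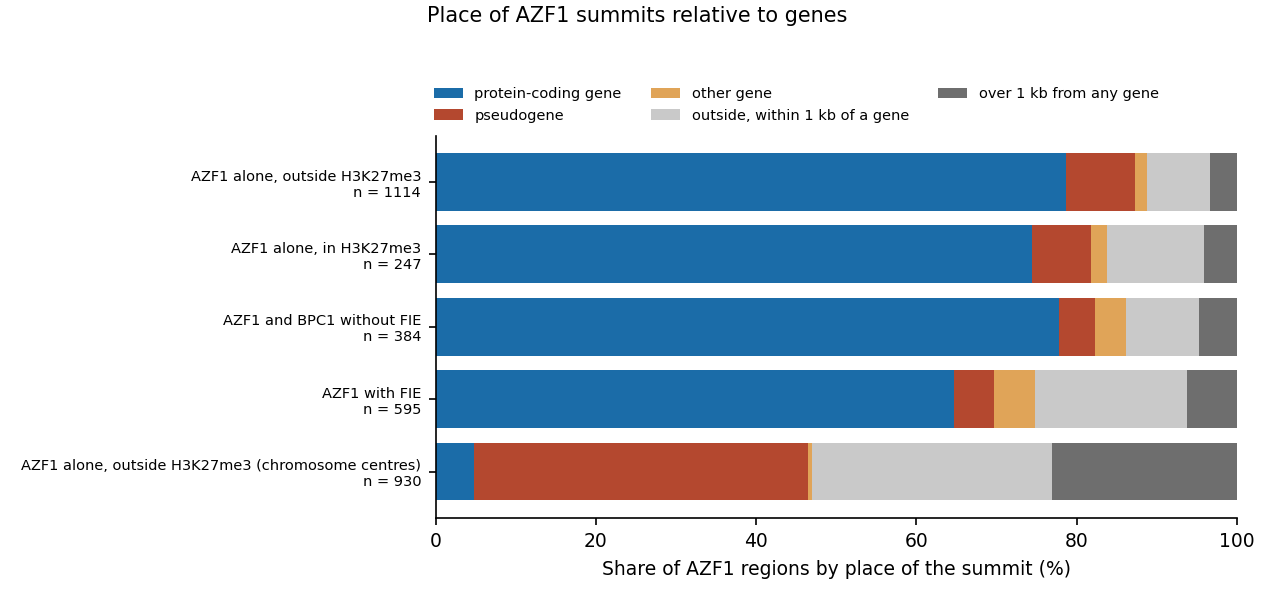
Share of AZF1 regions (percent, horizontal axis) whose summit lay in a protein-coding gene, a pseudogene, another gene, within 1 kb of a gene or farther away, for the 4 arm classes and for the centres. The top bar, the 1114 arm regions that met no other list, has 78.6% in protein-coding genes; the bar of the 595 regions with FIE has 64.7%.

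Inside genes, summits lay at all distances from the nearer end. For the 854 summits that lay in exactly 1 protein-coding gene, the median distance to the nearer end of the gene was 581 bp, and 11.8% lay within 200 bp of an end. Among arm regions with FIE, 26.5% of 377 summits lay within 200 bp of an end, and among those alone in H3K27me3 and those with BPC1 the shares were 14.2% of 183 and 14.5% of 290. The genes that held them differed in length. Their medians were 2858 bp for the 854 summits, 2351 bp with FIE, 2138 bp in H3K27me3 and 2584.5 bp with BPC1. The share that an even spread would place within 200 bp of an end was not computed. When the distance to the nearer end was divided by gene length, 17.2% of the 854 summits (14.8 to 19.9%) fell at 0 to 10% of the gene length, 26.2% (23.4 to 29.3%) at 10 to 20%, and 20.3%, 20.4% and 15.9% in the following steps up to 50%, where an even spread gives 20% in each. The step just inside the outermost one thus held the most summits; the intervals of the outermost and the innermost step overlap. The gene table used has no strand, so the 5′ and 3′ ends could not be told apart, and introns, exons and untranslated regions were not used here.

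**Figure D2:**
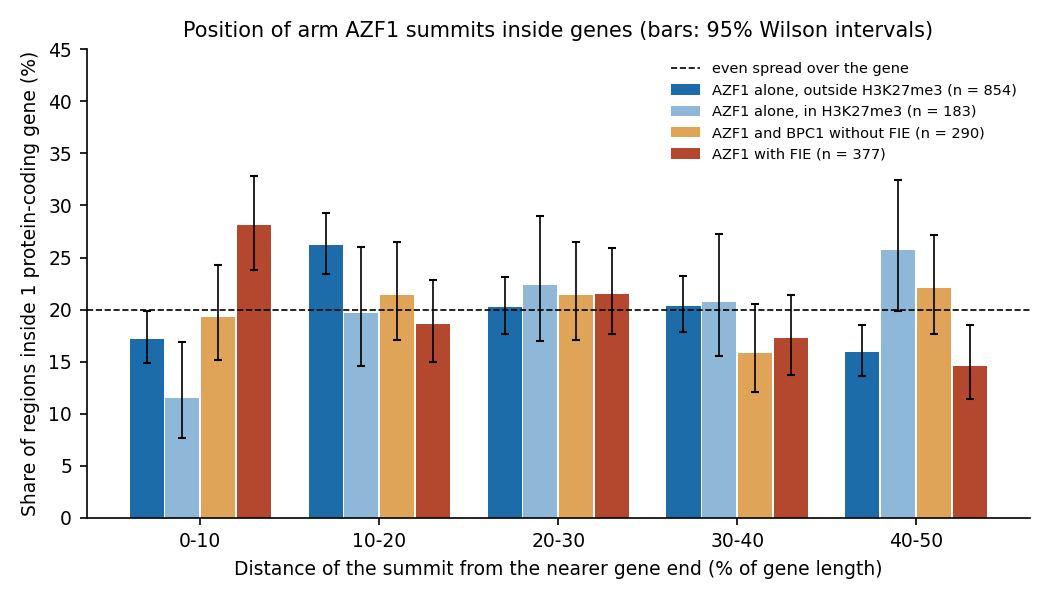
Share of summits (percent, vertical axis) by distance from the nearer gene end as a percent of gene length, for arm AZF1 regions whose summit lay in 1 protein-coding gene. Whiskers are 95% Wilson intervals and the dashed line marks an even spread. The dark blue bars, the regions that met no other list, are highest at 10 to 20% (26.2%), and the red bars, the regions with FIE, at 0 to 10%.

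The genes with a summit were longer at the median than the arm genes as a whole. Those that held the 854 summits measured 2858 bp, and the median of all 1372 protein-coding genes with a summit inside or within 1 kb was 2574 bp, against 2096 bp for the 26024 protein-coding genes of the arms. The share of genes with a summit was higher in the longer quartiles: 7.96% of the longest genes, 5.69% and 4.35% of the middle quartiles and 3.09% of the shortest. A longer gene has more bases in which a summit can fall, and the part of this in the shares was not tested. Genes that held summits of the other arm classes were also longer at the median than 2096 bp.

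The enrichment of these regions was low and narrow in range. The fold enrichment over the control had a median of 2.92, with quartiles of 2.65 and 3.26 and a range of 2.12 to 5.73. The −log10 q had a median of 12.1 and 48.9% of the regions were below 12, close to the threshold of 10 that the list applies. The regions were short, with a median of 123 bp, and 825 of them (74.1%) were 150 bp or less. Within this class, fold enrichment and −log10 q were related across regions with a Spearman rho of 0.46, and fold and width with one of −0.20, over 1114 regions of the same list.

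In fold enrichment the classes differed little. The median was 2.92 in the regions that met no other list, 2.86 in those alone in H3K27me3, 2.95 in those with BPC1 and 2.99 in those with FIE, each well inside the quartiles of the others. They differed more in −log10 q: 48.9% of the regions that met no other list lay below 12 (46.0 to 51.9%), against 49.0% (42.8 to 55.2%) of those alone in H3K27me3, 20.3% (16.6 to 24.6%) of those with BPC1 and 27.4% (23.97 to 31.1%) of those with FIE. The classes were chosen by overlap with lists that have thresholds of their own, and the part of those thresholds in this difference was not tested.

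**Figure D3:**
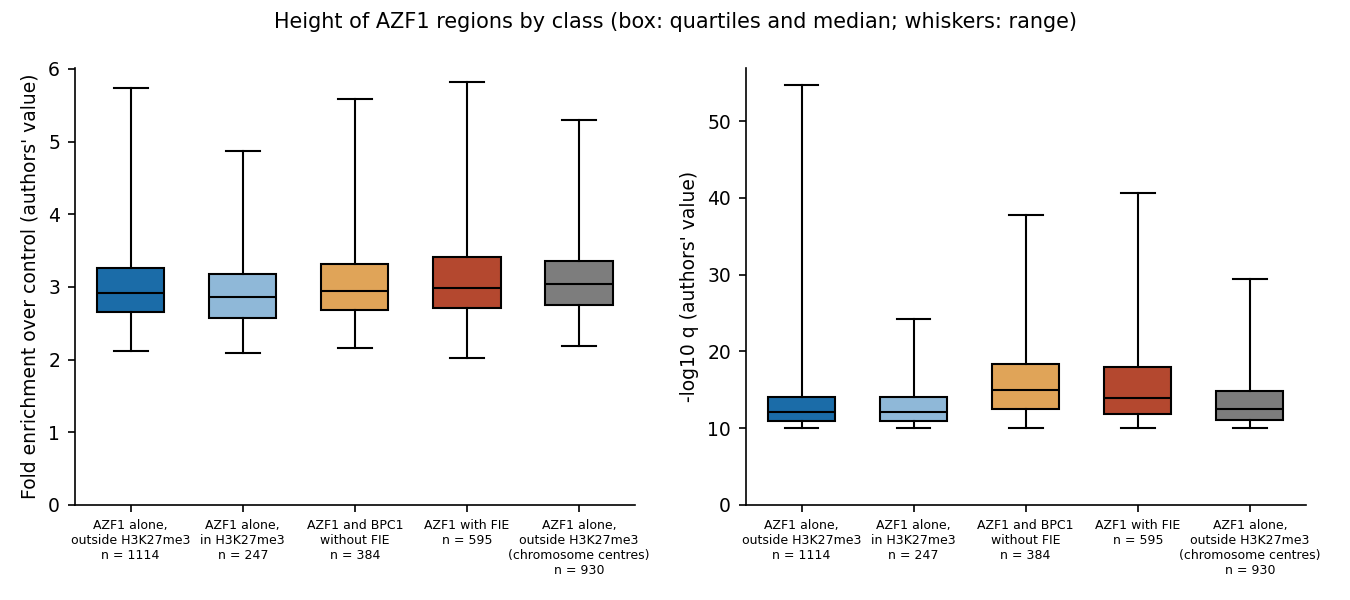
Fold enrichment over control (left) and −log10 q (right) of AZF1 regions in each class, both the authors' values, with boxes for quartiles and median and whiskers for the range. The median fold is 2.92 in the 1114 arm regions that met no other list and 2.86 to 2.99 in the other arm classes, while the median −log10 q is 12.1 in it, 12.1 in those in H3K27me3, 14.9 in those with BPC1 and 13.9 in those with FIE.

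Among the places relative to genes, fold enrichment had a median of 2.89 in the 876 regions in protein-coding genes and 3.07 in the 96 in pseudogenes. The 88 regions outside genes but within 1 kb had a median of 3.07 and the 37 farther away 3.01. The quartiles in protein-coding genes, 2.64 and 3.20, hold all of these medians. When the 1114 regions were divided by −log10 q, the share inside a gene was 90.3% in the highest quartile (86.3 to 93.3%) and 87.9% in the lowest (83.6 to 91.2%), with overlapping intervals. The share inside a pseudogene was 8.96% in the highest quartile and 7.47% in the lowest.

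The strongest of these regions lay at the AZF1 gene itself. It spanned chr5:26919422-26921510 (TAIR10, 2089 bp) with a fold enrichment of 5.73 and a −log10 q of 54.7, the highest values of the class on both scales. It covered 758 bp of the AZF1 gene, which the gene table lists as ZF1, and its summit lay 1182 bp beyond the gene and 223 bp from AT5G67460, the neighbouring gene. The plants carry gAZF1-Myc, which adds AZF1 sequence to the genome of both the precipitated and the input samples, so enrichment of the transgene and of the native locus cannot be told apart here. The next widest region, at GAPC1, was 682 bp long.

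Below it, the 14 next strongest regions had folds of 4.15 to 4.74. They lay at a pseudogene on chr5:14177452-14177751 (AT5G36075, 4.74) and at AT2G30540 (summit 387 bp outside, 4.60), LBD41 (4.58), EXPA16 (4.56), TPS-CIN (4.45), AT4G11230 (4.45), AT1G24967 (a pseudogene, 4.38), AT2G01028 (a pseudogene, summit 414 bp outside, 4.38), AT3G52790 (4.38), TPS1 (summit 25 bp outside, 4.26), MYB16 (4.25), PMT5 (4.23), RCAR1 (4.22) and AT2G38780 with AT2G38790 (4.15). LBD41 is a LOB-domain protein of the low-oxygen response, EXPA16 an expansin that loosens cell walls, and TPS-CIN a terpene synthase. TPS1 makes trehalose 6-phosphate, a sugar signal, and MYB16 acts in cuticle and epidermal cell formation. PMT5 is a polyol and monosaccharide transporter, and RCAR1 is an abscisic acid receptor. Of these 14, 11 had the summit inside the gene named.

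The position of the strongest regions can be given exactly on TAIR10. The EXPA16 region was chr3:20575678-20575795, with a −log10 q of 28.4, and lay 7134 bp or more from the nearest region of any other list. LBD41 had its region at chr3:537174-537308, and its nearest FIE region was 457 bp away and its nearest BPC1 region 471 bp. For MYB16 (chr5:4975447-4975648) and RCAR1 (chr1:142175-142297), the nearest FIE regions were 52402 and 3136 bp away, and the nearest H3K27me3 regions 25826 and 2229 bp. The 5 regions of next highest −log10 q lay in AT2G01690, CP1, AT1G64710, AT3G51330 and AT1G09185, with −log10 q of 22.9 to 25.7.

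Just inside the rule, the regions nearest to a region of another list were 80 bp from a BPC1 region, 98 bp from an H3K27me3 region and 111 bp from a FIE region. Just outside it, the smallest overlaps were 83, 88, 90, 90 and 92 bp. No overlap of an arm AZF1 region was under 83 bp, and the narrowest region of the list was 97 bp. The median gap was 10845 bp to H3K27me3, 17905 bp to FIE and 26894 bp to BPC1. Within 1 kb of a FIE region lay 47 of the regions (4.22%), of a BPC1 region 34 and of an H3K27me3 region 34. The rule keeps the regions off these lists and so sets the gaps in part. Gaps from other arm positions were not measured, so nothing is read from these values.

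Genes were assigned to these regions when a summit lay inside the gene or within 1 kb of either end. Of the 26024 protein-coding genes on the arms, 1372 (5.27%) had such a summit, and of the 32865 arm genes of any type, 1628 (4.95%). A single summit can assign several genes: 501 of the regions were within 1 kb of 2 or more genes. The 1372 protein-coding genes also had an H3K27me3 region in 160 cases (11.7%, 10.1 to 13.5%), against 27.8% of all arm protein-coding genes, and a FIE summit in 75 cases (5.47%, 4.38 to 6.80%), against 9.45%. A BPC1 summit lay at 4.81% of the 1372 genes (3.80 to 6.07%), against 5.54% of all arm protein-coding genes. The rule keeps regions off FIE, BPC1 and H3K27me3 regions and so sets all 3 shares in part; nothing is read from them.

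Protein-coding gene lists of textbook families and pathways, 31 in number, were set against the 5.27% of all arm protein-coding genes. The interval of the share lay above 5.27% in 3 lists, heat shock, cellulose synthase and expansin genes, and below it in none. No allowance was made for the number of lists or for gene length. Among 51 heat shock genes, 8 had a summit, or 15.7% (8.17 to 28.0%). Of the same 51 genes, 4 had an arm AZF1 region of the class with BPC1, against 1.74% of all arm protein-coding genes. The share of this list was thus not set apart from that in the class with BPC1. HSP70 (AT3G12580), a cytosolic chaperone of the heat response, had 3 summits, with folds of 3.91, 3.10 and 2.60. HSP90.1 had 1 with a fold of 3.63, CLPB4 had 2, the higher at 3.32, and Hsp70b had 1 at 3.07. HSP23.6-MITO (2.84), cpHsc70-2 (2.73) and a further pair of genes (2.60 and 2.51) had 1 each. The genes of HSP70, HSP90.1, CLPB4 and HSP23.6-MITO also had a BPC1 summit or an H3K27me3 region inside or within 1 kb. Heat shock genes have close copies in the genome, so the placement of reads among copies is uncertain. The genes of the list were 2591 bp long at the median.

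Cell wall genes showed similar shares. Of 41 cellulose synthase and cellulose synthase-like genes, 6 had a summit (14.6%, 6.88 to 28.4%): CESA10 (fold 3.80), CSLC04 (3.74), CESA6 (2.94), CSLC5 (2.55), IRX1 (2.51) and CESA1 (2.205). CESA1 and CESA6 are subunits of the complex that makes primary wall cellulose and IRX1 a subunit for secondary walls. These genes are long, 4109 bp at the median, and the longest quartile of all genes was assigned in 7.96% of cases. The interval of the 41 genes holds that value, so their share is not set apart from that of long genes. Of 28 expansin genes, 4 had a summit (14.3%, 5.70 to 31.5%): EXPA16 (4.56), EXPB1 (3.44), EXPA8 (3.34) and EXPA4 (2.76), with a median gene length of 1664 bp. In the other arm classes, 2 of the 28 had a summit in H3K27me3, 2 with FIE and 0 with BPC1. For the 41 genes above these counts were 0, 1 and 1. The shares of all arm protein-coding genes were 1.04%, 2.01% and 1.74%. The genes of EXPB1 and CESA6 also had a FIE summit inside or within 1 kb, and that of CESA10 an H3K27me3 region.

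In the abscisic acid pathway, 3 genes had a summit. Of 13 synthesis and turnover genes, 2 did, CYP707A3 (fold 3.20) and CYP707A1 (2.94), both 8′-hydroxylases that break the hormone down. Of 28 receptor and signalling genes, RCAR1 was 1 case, and DREB2A, which encodes an activator of drought response genes, was the case among 25 cold, drought and salt genes (567 bp wide, fold 3.37). Of 8 genes for C2H2 zinc finger proteins related to AZF1, RHL41, which is ZAT12 and acts in stress signalling, was the 1 with a summit (3.85). These counts are too small to set against the background of 5.27%.

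Auxin genes had summits at shares whose intervals held the 5.27% of all genes. The 78 SAUR genes, which are auxin-induced growth genes, included 2 with a summit, AT4G31320 (3.09) and AT2G24400 (2.81), or 2.56% (0.71 to 8.88%). Among 32 Aux/IAA genes, which encode repressors of the auxin response, IAA5 had 1 (3.98, summit outside the gene). The 22 auxin response factor genes included ARF12 (3.03), whose close tandem copies lie beside it. None of the 20 gibberellin and DELLA genes (0 to 16.1%) and none of the 16 clock genes (0 to 19.4%) had a summit. Both intervals hold 5.27%, so these lists are not set apart from all genes. PHYB, the red light receptor, and COP1, the light signalling ubiquitin ligase, were the 2 of 22 light genes, with folds of 2.71 and 2.64.

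Among metabolic and cytoskeletal genes the intervals held the 5.27% of all genes. Of 36 glycolysis genes, GAPC1 (2 summits, higher fold 3.58), HKL1 (2.94), FBA7 (2.77) and FBA6 (2.65) had a summit, or 11.1% (4.41 to 25.3%). GAPC1 encodes cytosolic glyceraldehyde 3-phosphate dehydrogenase, and its gene also had a BPC1 region. The FBA6 gene also had a BPC1 summit and an H3K27me3 region inside or within 1 kb. Of 27 actin and tubulin genes, TUA2 (3.46), TUB8 (3.08) and TUB3 (2.46), all tubulins, did. Housekeeping reference genes, used here as a control list, had 1 of 20, GAPC1. Ribosomal protein genes had 3 of 64, photosystem genes 3 of 54, and translation factors none of 29. The 2 of 44 genes listed as aquaporins were NIP7;1 and TIP1 (AT5G20350), and the gene table gives the second as TIP GROWTH DEFECTIVE 1, so it is not an aquaporin.

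Developmental regulators are the best known PRC2 targets. Of 33 floral and meristem regulators, PHB, a homeodomain gene of the leaf upper side, had a summit (fold 3.88). That is 3.03% (0.54 to 15.3%), an interval that holds the 5.27% of all arm protein-coding genes. In the other arm classes, 4 of the 33 had a summit in H3K27me3, 11 with FIE and 1 with BPC1. The shares of all arm protein-coding genes were 1.04%, 2.01% and 1.74%. The rule keeps regions off FIE and H3K27me3 regions and so sets these counts in part, and nothing is read from them. The PHB gene also had a FIE summit inside or within 1 kb. Of 20 Polycomb genes, EMF1 had 1 (2.58), or 5.0% (0.89 to 23.6%), close to the 5.27% of all arm protein-coding genes. The EMF1 gene also had FIE, BPC1 and H3K27me3 regions elsewhere within 1 kb of it. Among transcription factor families the counts were 4 of 69 WRKY, 6 of 98 NAC and 6 of 119 MYB genes, which are shares of 5.80, 6.12 and 5.04%. None of 30 ERF genes (0 to 11.4%) or 22 bHLH genes (0 to 14.9%) had a summit, and both intervals hold 5.27%. MYB16 (4.25) had the highest fold of these. The WRKY genes were WRKY50, WRKY21, WRKY4 and TTR1, and the NAC genes included a pair, NAC077 and NAC2, that share 1 region.

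**Figure D4:**
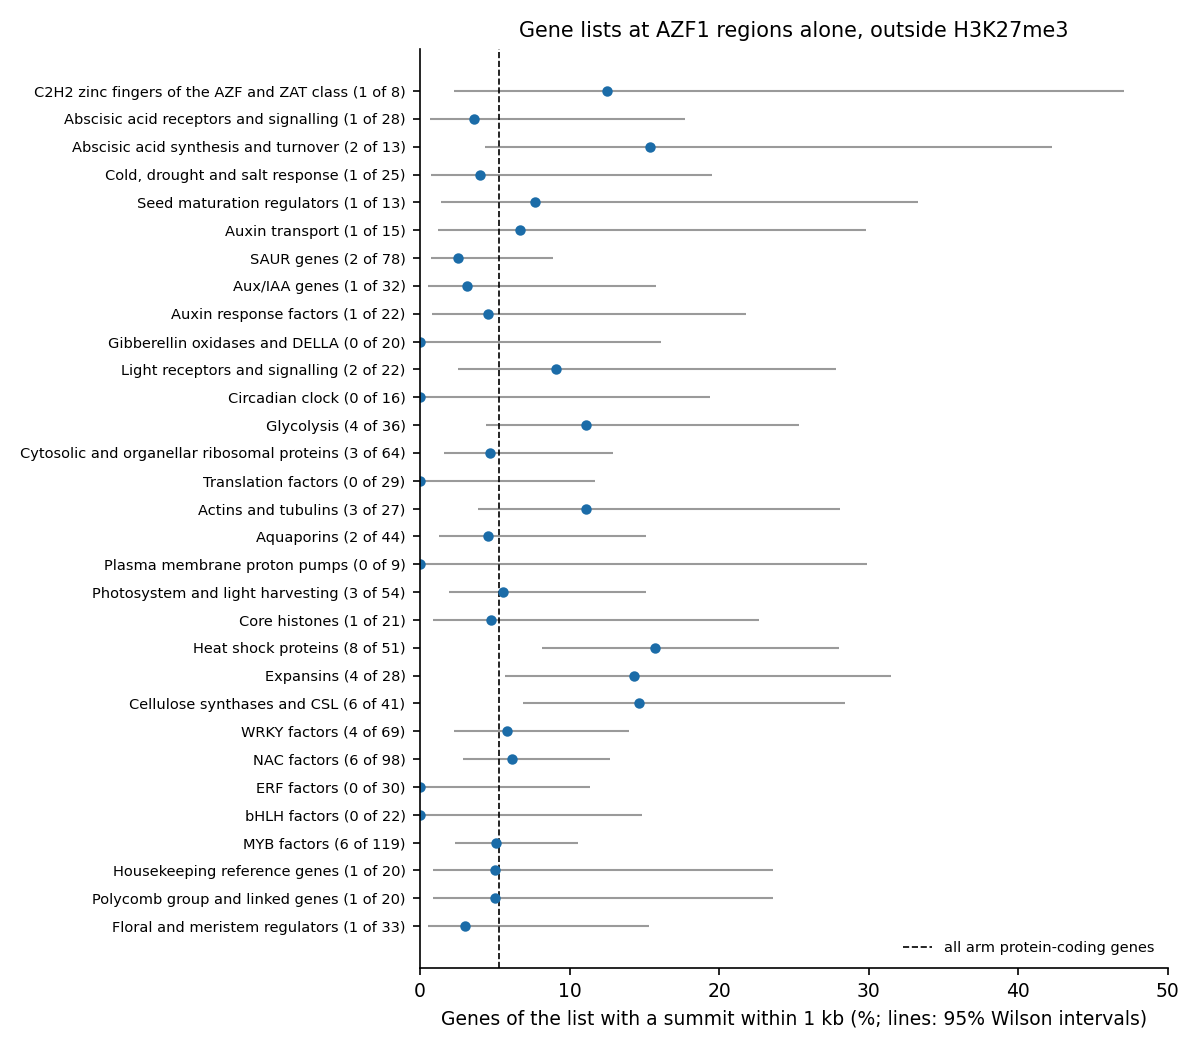
Share of the genes of each list (percent, horizontal axis) on the arms with a summit within 1 kb, with 95% Wilson intervals; the dashed line is the 5.27% of all arm protein-coding genes. Heat shock, cellulose synthase and expansin genes have the intervals that begin above the line. The 6 lists with no gene assigned, such as gibberellin with 0 of 20, are at the left end, with intervals that hold the line.

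Non-protein-coding genes were also assigned. Pseudogenes and transposable element genes had 141 of 1715 (8.22%, 7.01 to 9.62%), against 4.95% of arm genes of any type. The latter share includes the RNA genes given below, which were assigned less often. By summits, 8.62% of these regions lay inside a pseudogene (7.11 to 10.4%). The share was 7.29% (4.66 to 11.2%) in the class in H3K27me3, 4.43% (2.78 to 6.97%) with BPC1 and 5.04% (3.55 to 7.11%) with FIE. Among short RNA genes the counts were 8 of 594 tRNA genes, 5 of 291 microRNA genes, 2 of 277 snoRNA genes and 2 of 82 snRNA genes. These counts rest on the 1 kb around the genes: with gene bodies alone they were 0 tRNA, 1 microRNA, 0 snoRNA and 0 snRNA genes. Of the microRNA genes, MIR156j had the summit inside it. Long non-coding RNA genes had 81 of 3176 (2.55%), and 25 with gene bodies alone. Reads from repeated sequence can map to several places, and no source used here says how the authors treated such reads, so regions in pseudogenes and repeats are uncertain.

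More than 1 summit at a gene was uncommon. Of 1628 assigned genes, 55 had 2 or more summits, 43 of them protein-coding, and 3 had 3: HSP70, OASA1 and LON1. OASA1 makes cysteine in the cytosol and had its 3 summits outside the gene, at folds of 3.22, 3.14 and 2.75. LON1, a mitochondrial protease, had 2 inside and 1 outside, at 2.87, 2.51 and 2.36. Of the next genes by fold, the pseudogenes AT2G01029 and AT3G47280 each had 2 inside, and so did AT5G63063 and AT3G11560. The 2 summits at AT5G63063 are also those near U6.2 and AT5G63060, and AT1G73460 had 1 inside and 1 outside. Of all 1114 regions, 38 lay within 1 kb of another (3.41%, 2.50 to 4.65%), and the median gap to another was 29336 bp.

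Averaged over broad steps of distance from the border of the centre, regions that met no other list numbered 10.6 to 13.4 per Mb. The highest value, 13.4, was that of the first Mb, which holds the dense block of chromosome 4 described next. On a finer scale, 983 windows of 0.1 Mb on the arms held 1.13 of these regions at the mean. Of these windows, 333 held none, and the fullest, in that block, held 12. Random placement was not set beside the count of empty windows. The density of other arm AZF1 regions over those bins was 10.7 to 17.2 per Mb, protein-coding genes 196.7 to 293.8 per Mb, and pseudogenes 61.4 per Mb in the first Mb but 4.40 per Mb beyond 12 Mb. By chromosome the density was 10.7, 12.2, 10.7, 13.4 and 10.8 per Mb for chromosomes 1 to 5. The median fold of a chromosome was between 2.84 and 2.99.

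**Figure D5:**
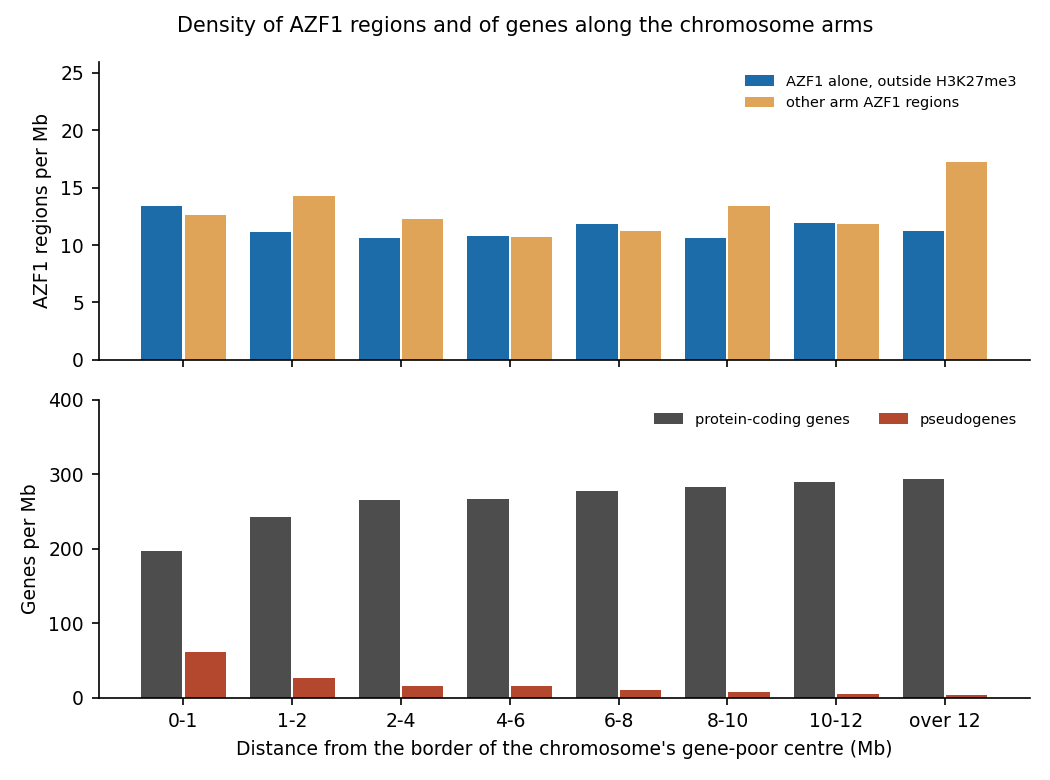
Regions per Mb (top) and genes per Mb (bottom) by distance from the border of the gene-poor centre in Mb. The density of regions that met no other list stays between 10.6 and 13.4 per Mb, while pseudogenes fall to 4.40 per Mb beyond 12 Mb, against 61.4 per Mb in the first Mb.

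The densest block of regions was on chromosome 4. Between 1.6 and 2.0 Mb, 24 of 38 AZF1 regions met no other list, or 60.0 per Mb, against 11.4 per Mb over all arms. A heterochromatic knob is known on the short arm of this chromosome in Col, and the block held 177.5 pseudogenes per Mb against 17.5 per Mb over the arms. Of the 24 summits, 18 lay outside genes, 4 in a pseudogene and 2 in a protein-coding gene, so 6 of 24 were inside a gene, against 90.2% of the other 1090 regions. The median fold was 3.03 in the block and 2.91 elsewhere. Mappability in the block was not tested. The next densest windows of 0.1 Mb were at 0 to 0.1 Mb of chromosome 2 and 0.2 to 0.3 Mb of chromosome 3, with 6 regions each.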

How the data were processed

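ChIP-seq of 21 samples gave 4 deposited region lists with no value per replicate. Per the submitters' processing notes, the authors used Bowtie2, bedtools and MACS2 2.1.1.20160309 on TAIR10; no source used here gives settings, the handling of reads that map to several places, or how replicates were combined. The deposited lists give, per region, a score, the authors' fold enrichment (a ratio over the control), −log10 q (and −log10 p, not used), and for the narrow lists a summit. The score is −log10 q times 10, rounded down, in all 4627 rows of the AZF1 list. The series design names the Col input as the control of AZF1, and the list does not name its control. Depth is unknown.

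Overlap meant 1 shared base. The members and the gene lists were chosen with earlier results of these data known. Genes came from a RefSeq table of TAIR10.1 (37899 nuclear genes, 27444 protein-coding); its build is not the one of the lists, so no gene coordinates are printed, and it has no strand. Its positions were checked by shifting summits: 88.8% of member summits were in genes at no shift, and 68.1% and 69.2% at shifts of 20000 bp to the left and right, and no shift gave the highest share on each chromosome. The gene lists matched 239 of 256 written symbols, and families were matched by symbol pattern. The genes named were those at the 15 regions of highest fold and the 5 of next highest −log10 q, up to 10 genes with most summits, the 5 widest regions, and list members with a summit, at most 6 per list by fold. A gene that this rule names is not reported here. Shares have 95% Wilson intervals. Assignment was tested on simulated data. Promoter sequence and motifs were not analysed here. Computation used Python 3.11.15, pandas 2.3.3, numpy 2.4.6, scipy 1.17.1 and matplotlib 3.10.9.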

Additional observations from a re-analysis of the deposited data

How the results depend on the processing

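Of 32 alternative values of the main results, 23 stayed within the interval of the value reported, or within 1.5 times a count. Of 111 for the gene lists, 83 did. Requiring 50% of the region to be covered, or extending the other lists by 500 bp, moved none of the main results. Leaving out 1 Mb windows that hold under 100 protein-coding genes, in place of the set centres, gave 1260 members, 84.1% inside a gene and 94.8% within 1 kb of one, against 88.8% and 96.7%. Taking the regions above the median −log10 q of all AZF1 regions left 361 members with a median fold of 3.20, 1.66% within 1 kb of another and 460 protein-coding genes. Extending genes by 500 bp or 2 kb gave 94.7% and 98.8% of members near a gene, and gene bodies alone gave 873 protein-coding genes against 1372. Leaving out the block of chromosome 4, an alternative chosen after seeing the data, gave 90.2% inside a gene and a median fold of 2.91. The lists hold no replicate values, so no replicate could be left out. No paired analysis was possible because no result comes from a test. The promoter motif alternatives were not run. With gene bodies alone, 5 of 51 heat shock genes (9.80%) were assigned, against 3.35% of all arm protein-coding genes under the same setting. Counts of non-coding RNA genes moved with the extension: 0, 3, 8 and 21 tRNA genes and 25, 49, 81 and 153 long non-coding RNA genes were assigned at extensions of 0, 500 bp, 1 kb and 2 kb. What limits these results is the threshold of the lists and the lack of values per replicate. A region missing from a list may have missed that list's threshold by little.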
